A study of Mus musculus with 2 samples.

Results

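Leptin and the cytokines of the interleukin-6 family act through related receptors on the cell surface. The long form of the leptin receptor, *Lepr*, signals as a dimer, whereas interleukin-6, interleukin-11, leukemia inhibitory factor and oncostatin M all need gp130, the shared subunit encoded by *Il6st*. Both kinds of receptor activate Jak kinases and the transcription factor Stat3, and Stat3 induces *Socs3*, an inhibitor that binds these receptors and shuts the signal down. *Lepr* is otherwise best known from neurons that control food intake and from stromal cells of bone marrow.

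The 7 genes described here are *Lepr*, *Il6st*, *Lifr*, *Osmr*, *Il6ra*, *Il11ra1* and *Socs3*, picked by symbol from 27998 gene rows in single-cell counts of wound dermis. They were picked with their levels in these libraries already known, so every value below is a description. Counts are per gene, so the long form of *Lepr* was not told apart from any other form. Tomato+ cells of small skin wounds were compared between 1 control library, from *SM22rtTA; tetO-Cre; R26-Tomato* mice, and 1 *SM22-SmoM2* library, from *SM22rtTA; tetO-Cre; R26-SmoM2/Tomato* mice. The comparison asks how dermal cells respond when the Hedgehog (Hh) pathway is switched on in them during healing. Mice of both groups were 4 to 5 weeks old, per the labels, and received doxycycline at 20 g/kg from day 1 after wounding. The wounds were collected once re-epithelialization had been complete for 3 days. In all mice the *SM22α* promoter drives rtTA, which with doxycycline turns on Cre. Cre then turns on Tomato and, in *SM22-SmoM2* mice only, SmoM2, an active form of Smoothened. Each library pooled wounds of several mice, so the spread between mice is not known.

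After filtering, the control library held 2856 cells with a median of 8607.5 unique molecular identifiers (UMIs, 1 per captured transcript) and the *SM22-SmoM2* library 1792 cells with a median of 8837.5. Fibroblasts numbered 1045 and 1098, with medians of 12704 and 10947.5 UMIs. Endothelial cells numbered 702 and 270, Schwann cells 678 and 294, muscle (mural) cells 272 and 94, and immune cells 82 and 33. These names were rebuilt from marker genes. Each of the 7 listed fibroblast markers had UMIs in fibroblasts of both libraries, but also in the endothelial, Schwann, muscle and immune cells. Their presence therefore does not tell fibroblasts apart. Summed over fibroblasts they were lower with *SM22-SmoM2*, at 33660 against 56239 CPM. A cluster of 47 *SM22-SmoM2* cells that counted as fibroblasts had 0 of these 7 markers raised. The 7 endothelial markers, which matter for *Lepr*, summed in control and *SM22-SmoM2* fibroblasts to 78.6 and 73.7 CPM. Endothelial cells had 5365 and 4693 CPM of them. Levels are counts per 1e+06 UMIs of the class (CPM). Ranges in parentheses are 95% intervals that cover counting error only. They are exact Poisson intervals for levels, exact conditional intervals for ratios and Clopper-Pearson intervals for shares. With 1 library per group no test between conditions was possible and none was run. Male cells made up 76.2% of the sexed control fibroblasts and 94.4% of the sexed *SM22-SmoM2* fibroblasts. Transcripts of *Xist* together with Y-linked genes, seen in 143 control and 45 *SM22-SmoM2* barcodes, mark barcodes that may hold cells of more than 1 mouse.

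*Ptch1*, the Hh receptor gene that the active pathway itself induces, was read first as a check of the labels. In fibroblasts it stood at 12.3 CPM (10.5 to 14.3) in the control library and at 147 CPM (140 to 154) in the *SM22-SmoM2* library. In muscle cells its log2 ratio was 1.71 (0.60 to 2.83), from 16 and 15 UMIs. The ratio was 0.45 (-0.06 to 0.95) in endothelial and 0.52 (-0.10 to 1.13) in Schwann cells. *Ptch1* was thus higher in *SM22-SmoM2* muscle cells, but its 15 UMIs there lay in 5 of 94 cells, with 8 in a single cell. The counting interval does not cover such clumping. In endothelial and Schwann cells *Ptch1* did not clearly show a raised Hh pathway. Immune cells held only 2 and 5 *Ptch1* UMIs. Of the 7 genes, 4 were at least 1.5-fold higher in *SM22-SmoM2* fibroblasts and 2 at least 1.5-fold lower. Across the 11493 genes with at least 50 UMIs, 11.9% were that much higher and 12.2% that much lower, and the median log2 ratio was -0.07.

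*Lepr* differed far more between the libraries than the other 6 genes. Control fibroblasts held 46 *Lepr* UMIs in 31 of 1045 cells, or 3.35 CPM (2.45 to 4.46). *SM22-SmoM2* fibroblasts held 987 UMIs in 441 of 1098 cells, or 79.1 CPM (74.2 to 84.2). The level was 23.6-fold higher, a log2 ratio of 4.56 (4.14 to 5.02), which placed *Lepr* 23rd from the top of the 11493 genes. The signal was spread over many cells. In the *SM22-SmoM2* library 213 fibroblasts had 1 *Lepr* UMI, 105 had 2, 102 had 3 to 5 and 21 had 6 or more, with a maximum of 21. In the control library no fibroblast had 6 or more. The share of fibroblasts with a *Lepr* UMI was 2.97% and 40.2% in the control and *SM22-SmoM2* libraries. In Schwann cells, with medians of 5959.5 and 5545.5 UMIs, the share was 0.885% and 2.04%. With every cell reduced by random draws to 1500 UMIs, *Lepr* was seen in 0.478% of control and 8.56% of *SM22-SmoM2* fibroblasts, against 0.34% of *SM22-SmoM2* Schwann cells and 0 of 678 control Schwann cells, which by a limit of 3 counts allows a share of cells with a UMI of up to 0.442%. *Leprot* lies upstream of *Lepr* on the same strand and encodes a protein that regulates the receptor's surface level. *Leprot* was at 173 CPM in the control and 171 CPM in the *SM22-SmoM2* fibroblasts, a log2 ratio of -0.02 (-0.11 to 0.06).

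*Il6st*, the shared signaling subunit, was at 65.5 CPM (61.3 to 69.9) in control and 125 CPM (119 to 132) in *SM22-SmoM2* fibroblasts, a log2 ratio of 0.94 (0.82 to 1.06). The signaling chains *Lifr* and *Osmr*, which pair with gp130, did not follow it. *Lifr*, which pairs with gp130 to receive leukemia inhibitory factor, was at 17.2 CPM (15.1 to 19.6) in control and 18.6 CPM (16.3 to 21.1) in *SM22-SmoM2* fibroblasts, and the interval of its log2 ratio spanned 0 (0.11, -0.16 to 0.38). *Osmr*, the second chain of the oncostatin M receptor, was lower, at 31.1 CPM (28.2 to 34.2) and 17.7 CPM (15.5 to 20.2), a log2 ratio of -0.81 (-1.05 to -0.57).

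The chains that bind a ligand without signaling by themselves differed in opposite directions. *Il6ra*, which captures interleukin-6, was at 7.64 CPM (6.25 to 9.25) in control and 4.17 CPM (3.11 to 5.46) in *SM22-SmoM2* fibroblasts, a log2 ratio of -0.87 (-1.38 to -0.38) from only 105 and 52 UMIs. *Il11ra1*, which captures interleukin-11, was at 291 CPM (282 to 301) and 527 CPM (514 to 540), a log2 ratio of 0.86 (0.80 to 0.91). Its count is uncertain because near-identical *Il11ra2* copies take 3 rows, all at 0 UMIs, and because *Il11ra1* overlaps *Galt* on the same strand and 5 genes on the other strand, with the counted strand not given. *Socs3*, the feedback inhibitor, was at 53.0 CPM (49.2 to 57.0) and 80.5 CPM (75.6 to 85.6), a log2 ratio of 0.60 (0.46 to 0.74). Without the 46 cells of fibroblast sub-cluster 12, described with the sub-clusters, it was 0.46 (0.32 to 0.61), under 1.5-fold. In male fibroblasts alone the log2 ratios of *Lepr*, *Il6st*, *Osmr*, *Il6ra*, *Il11ra1* and *Socs3* were 4.91, 0.93, -0.71, -0.80, 1.01 and 0.77. In female fibroblasts, 198 control and 48 *SM22-SmoM2* cells, *Lepr* was at 4.43 but *Socs3* at -0.0078 and *Il6ra* at 0.78, both with intervals that spanned 0.

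The genes lie at separate loci of GRCm38. *Lepr* spans chr4:101717404-101815352 on the plus strand and *Il6st* spans chr13:112464070-112510086 on the plus strand. *Osmr* and *Lifr* neighbour each other on chromosome 15 at chr15:6813577-6874969 (minus strand) and chr15:7090614-7197489 (plus strand), and of this pair *Osmr* was lower in *SM22-SmoM2* fibroblasts. *Il6ra* spans chr3:89864059-89913196 (minus strand), *Il11ra1* chr4:41699989-41769474 (plus strand) and *Socs3* chr11:117966079-117970047 (minus strand). The 250 bases before each start site in RefSeq (GRCm38.p6) were searched on both strands, 10 windows for the 7 genes, for the letters of the Gli consensus, GACCACCCA, and for the palindrome of STAT sites, TTCNNNGAA. The Gli letters were in 0 of 10 windows and in 0.225% of 32851 windows of all genes. The STAT letters were in 1 of the 10, that of *Socs3*, and in 7.02% of all. The stretch is shown because *Socs3* is the Stat3-induced member, and it lies at chr11:117969502-117969530 on the minus strand, inside the span that GENCODE gives the gene. Capitals mark the palindrome, whose first base is at -154 from the RefSeq start site, in the 5′ to 3′ direction of *Socs3*.
Socs3 upstream: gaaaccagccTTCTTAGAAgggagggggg

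**Figure D1:**
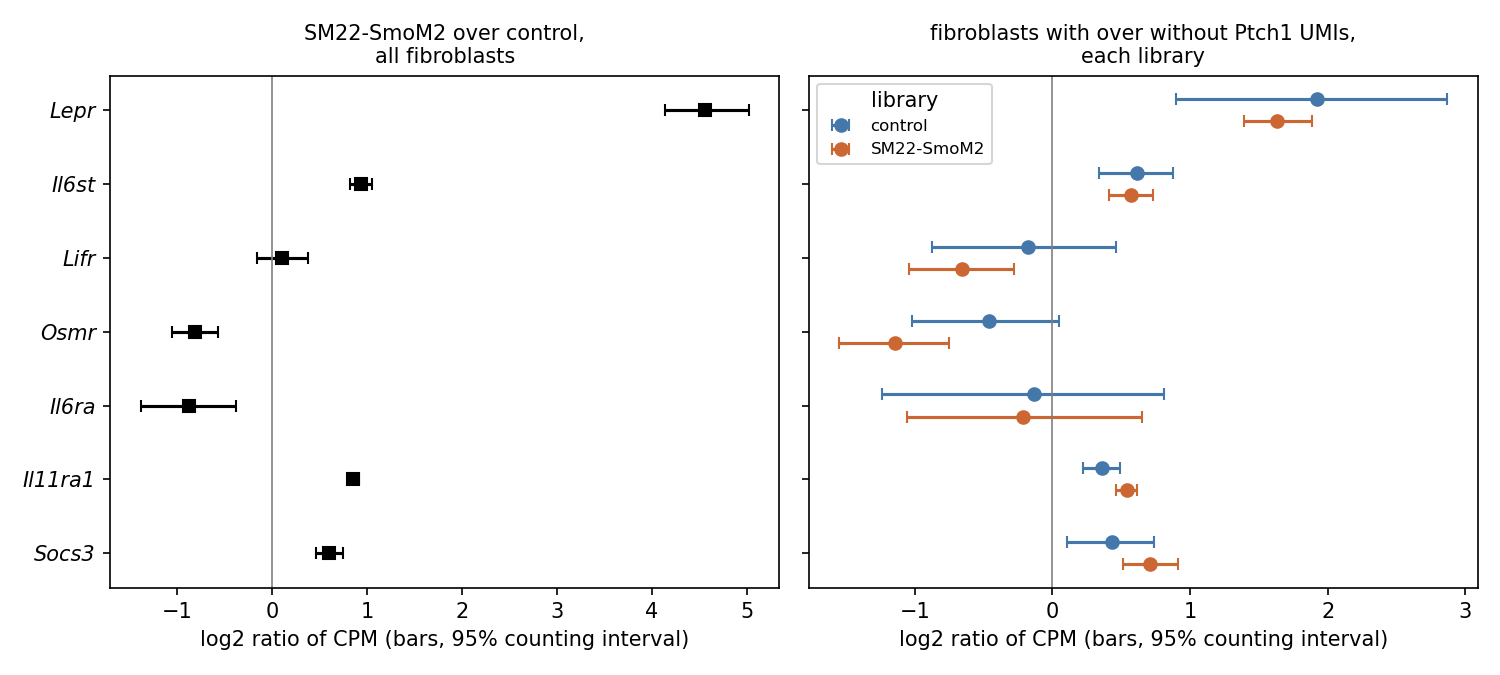
Log2 ratios of CPM for the 7 genes with 95% counting intervals as bars. Left, *SM22-SmoM2* over control in all fibroblasts (black squares), where *Lepr* sits at 4.56 and the other 6 genes between -0.87 and 0.94. Right, fibroblasts with over those without *Ptch1* UMIs inside the control (blue) and *SM22-SmoM2* (orange) libraries, where *Lepr* is the highest in both, at 1.92 and 1.64.

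Endothelial cells, which respond to leptin in several tissues, had 26.8 CPM (23.4 to 30.6) in the control library and 27.3 CPM (21.1 to 34.8) in the *SM22-SmoM2* library. The log2 ratio was 0.03 (-0.40 to 0.43). Endothelial cells held 70.5% (65.1 to 75.5) of all *Lepr* UMIs in the control library and 5.93% (4.61 to 7.50) in the *SM22-SmoM2* library, while fibroblasts went from 14.7% (11 to 19.2) to 90.1% (88.1 to 91.8). Fibroblasts gave 45.6% and 70.0% of all UMIs in these libraries. Among the endothelial clusters, the one led by *Ccl21a*, *Fabp4* and *Lrg1* had 41.6 CPM *Lepr* in control and 44.9 CPM in *SM22-SmoM2* cells, and the one led by *Cldn5*, *Egfl7* and *Esam*, with *Rbp7* and *Gpihbp1*, had 16.8 and 18.9 CPM. Schwann cells had 1.48 and 3.47 CPM, from 7 UMIs in each library. Muscle cells held 1 *Lepr* UMI, or 0.534 CPM, in the control library and 7 UMIs in 3 cells, or 13.1 CPM, in the *SM22-SmoM2* library. The muscle log2 ratio of 4.61 (1.65 to 10.11) was above 0 but rests on these 8 UMIs. Muscle cells also held fibroblast transcripts. The 7 fibroblast markers summed to 5843 CPM in *SM22-SmoM2* muscle cells and to 5610 CPM in those of the control. Fibroblasts had 33660 and 56239 CPM of them, in the same order. Whether the muscle *Lepr* UMIs came from fibroblasts was not tested.

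Immune cells were at 49.98 CPM (34.8 to 69.5) and 82.1 CPM (55.4 to 117), but much of this came from single cells. In the control library 19 of 35 *Lepr* UMIs lay in 1 of 82 immune cells, and in the *SM22-SmoM2* library 21 of 30 lay in 1 of 33. These barcodes held 2 and 0 UMIs of *Col1a1*, the main collagen of fibroblasts, and 34 and 29 UMIs of *Tyrobp*, a myeloid adaptor. Without the single highest cell of each library, immune *Lepr* was at 23.1 and 25.5 CPM. Of the 9 *Lepr* UMIs that then remained in the *SM22-SmoM2* library, 8 lay in barcodes with at least 20 *Col1a1* UMIs, whereas no control barcode of that kind held any.

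*Il6st* was abundant in endothelial cells, at 355 CPM (342 to 368) in control and 293 CPM (272 to 316) in *SM22-SmoM2* cells, a log2 ratio of -0.27 (-0.40 to -0.15). In Schwann cells it was at 176 CPM (164 to 188) and 117 CPM (103 to 133), a log2 ratio of -0.58 (-0.79 to -0.37). So *Il6st* was higher in the *SM22-SmoM2* library in fibroblasts and lower in these lineages. *Socs3* showed a like contrast. In Schwann cells *Socs3* was at 179 CPM (168 to 192) in control and 106 CPM (92.3 to 121) in *SM22-SmoM2* cells, a log2 ratio of -0.76 (-0.98 to -0.54). In muscle cells it was at 256 CPM (234 to 280) and 159 CPM (127 to 197), a log2 ratio of -0.69 (-1.04 to -0.35), and in endothelial cells at 411 and 428 CPM, with 0.06 (-0.04 to 0.16).

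*Lifr* was at 74.9 CPM (69.1 to 81.0) in control and 50.04 CPM (41.5 to 59.9) in *SM22-SmoM2* endothelial cells, a log2 ratio of -0.58 (-0.88 to -0.30). *Osmr* in muscle cells was at 62.0 CPM (51.2 to 74.3) and 86.0 CPM (63.0 to 115), with intervals that overlap. *Il6ra* was at 41.4 CPM (27.7 to 59.5) and 32.8 CPM (17.0 to 57.3) in immune cells, where its protein is well known from macrophages. In *SM22-SmoM2* muscle cells *Il6ra* had 0 UMIs, which allows up to 5.61 CPM.

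Counting the genes with at least 50 UMIs in a lineage, 0 of 7 were at least 1.5-fold higher or lower in endothelial cells, beside 3.17% higher and 6.41% lower among all genes. In Schwann cells 0 of 6 were higher and 2 lower, *Osmr* and *Socs3*, beside 4.47% and 7.69%. In muscle cells 0 of 5 were higher and 1 lower, beside 4.54% and 11.8% and an all-gene median of -0.11, and in immune cells 2 of 4 were higher and 0 lower, beside 10% and 15.4%. One of those immune genes was *Il11ra1*, at 71.4 and 265 CPM. In the *SM22-SmoM2* library 89 of its 97 immune UMIs lay in 8 barcodes with at least 20 *Col1a1* UMIs. In immune cells below that limit *Il11ra1* was at 34.7 CPM in control cells and 34.1 CPM in *SM22-SmoM2* cells.

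**Figure D2:**
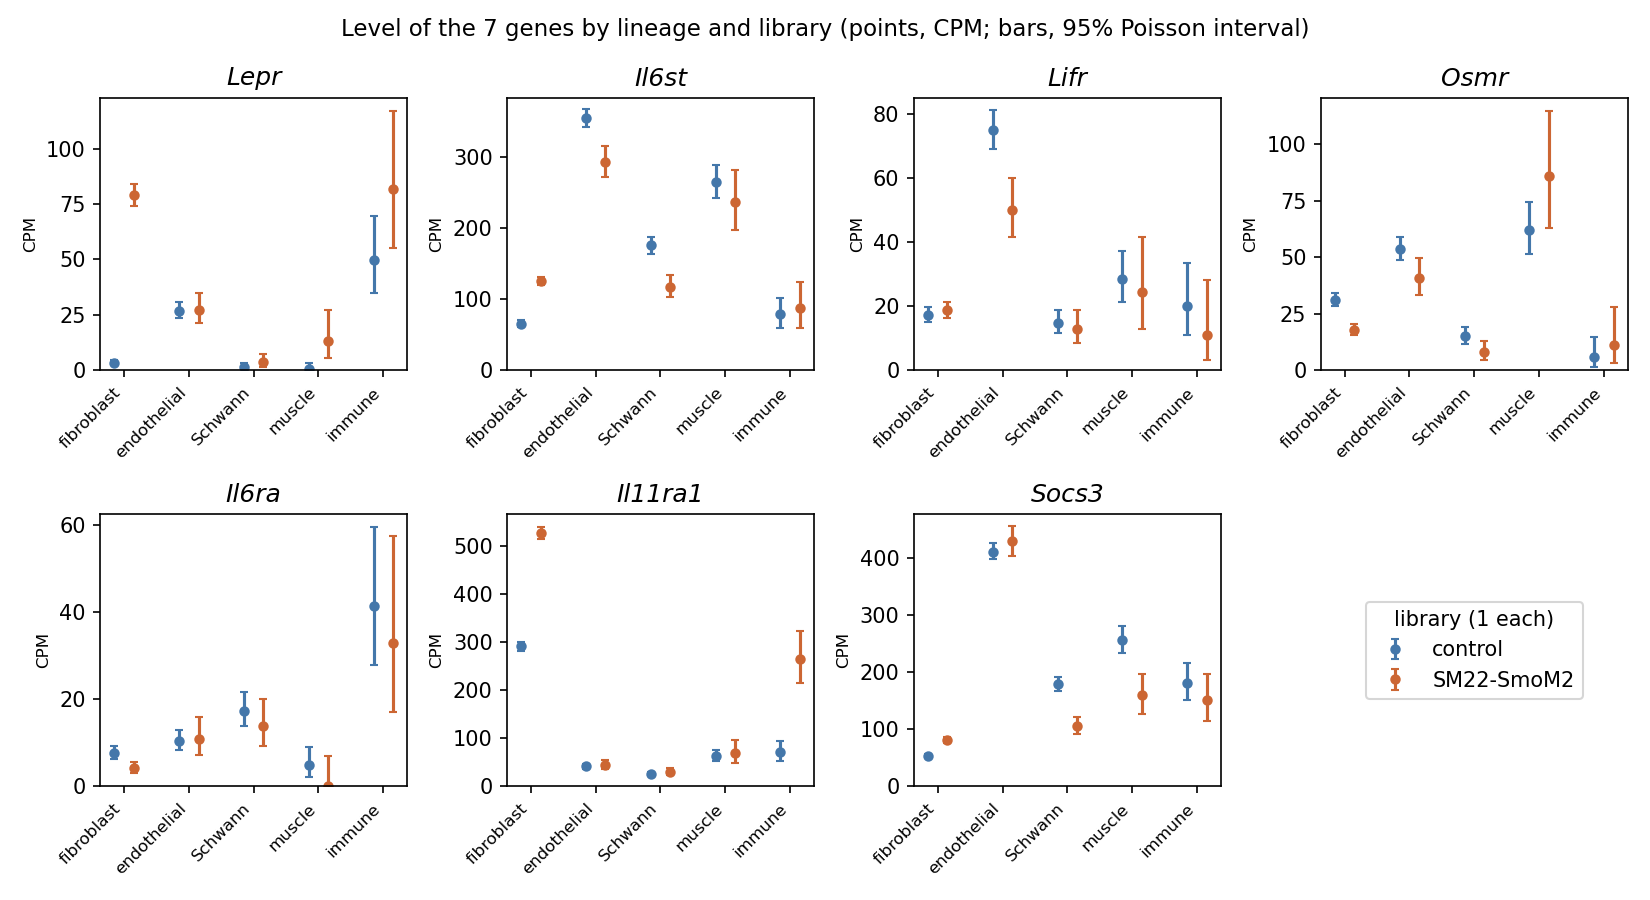
CPM of each gene in 5 lineages of the control (blue) and *SM22-SmoM2* (orange) libraries, with points for the class sum and bars for the 95% Poisson interval. *Lepr* in fibroblasts goes from 3.35 to 79.1 CPM while endothelial cells stay at 26.8 and 27.3 CPM, and *Il11ra1* is highest in fibroblasts in both libraries.

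Fibroblasts were clustered without the 7 genes and without Hh pathway genes, which gave 12 sub-clusters after 3 were left out by their marker genes. One of the 3, sub-cluster 13 with 45 control cells, was left out for the melanocyte gene *Mlana* alone, and its *Il11ra1* was at 697 CPM. With all 3 kept, the fibroblast log2 ratios of *Lepr* and *Il11ra1* were 4.56 and 0.81. In the *SM22-SmoM2* library sub-cluster 3, led by *Mest*, *Penk* and *Cldn1*, had 134 CPM *Lepr* (121 to 149) and 271 CPM *Ptch1* (251 to 292). Sub-cluster 7, led by *Wif1*, *Egfl6* and *Penk*, had 109 CPM *Lepr* (92.9 to 128) and 203 CPM *Ptch1* (180 to 227). Sub-clusters 4 (*Areg*, *Mmp13*) and 8 (cycling cells with *Ube2c* and *Ccnb1*) both had 92.6 CPM *Lepr*. Their intervals, 81.3 to 105 and 74.2 to 114 CPM, overlap that of sub-cluster 7.

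The order of *Lepr* differed from that of *Ptch1*. Sub-cluster 12, with 46 cells and a median of 4530.5 UMIs, had *Rspo3* and *Bmp4* among its leading genes. It had 12 of 12 listed markers of Hh-active II fibroblasts raised. This is no independent sign of its identity. In the clustering of all cells, the cluster with like leading genes, 47 *SM22-SmoM2* and 0 control cells, counted as fibroblasts by these markers alone. Sub-cluster 12 had the highest *Ptch1*, 332 CPM (271 to 402). Its *Lepr* was 54.3 CPM (31.6 to 86.9), close to the 52.8 CPM (42.0 to 65.6) of sub-cluster 6, led by *Egfl6* and *Wif1*. Sub-clusters 1 and 2, with 16.7 and 19.3 CPM *Ptch1*, had 9.06 CPM (4.82 to 15.5) and 25.2 CPM (17.9 to 34.6) *Lepr*.

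In the control library *Lepr* was at most 3.91 CPM in 7 of the 8 sub-clusters with at least 20 cells. In sub-cluster 9 it had 0 UMIs, which allows up to 1.91 CPM. The other was sub-cluster 3, whose 36 control cells had 25.3 CPM *Lepr* (11.6 to 48.1) and 104 CPM *Ptch1* (73.4 to 144). Both genes were highest there among these 8 control sub-clusters. Sub-clusters 4, 6 and 7 had only 8, 1 and 10 control cells and are not ranked, although they held further control *Lepr* UMIs. In the clustering of all cells, the cluster led by *Penk* and *Clec3b* held 21 *Lepr* UMIs in 42 control cells. Sub-cluster 11, with 49.96 CPM *Ptch1* in the control library, had only 2.94 CPM *Lepr* (0.36 to 10.6).

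Within the 4 sub-clusters that held at least 20 cells of each library, *Lepr* was higher in *SM22-SmoM2* cells in every one. Its log2 ratios were 2.41 (0.91 to 4.09) in sub-cluster 1 and 3.84 (2.49 to 5.54) in 2. They were 2.41 (1.47 to 3.55) in 3 and 4.57 (3.16 to 6.47) in 8. In sub-clusters 1 and 2 the *SM22-SmoM2* UMIs lay in 5.98% and 8.94% of cells, a clumping the counting intervals do not cover. In the clustering of all cells, the fibroblast cluster led by *Mmp3* showed no rise. It held 5 *Lepr* UMIs in 291 control cells (1.55 CPM) and 1 in 81 *SM22-SmoM2* cells (0.96 CPM, 0.02 to 5.35). Those led by *Crabp1*, *Penk* with *Clec3b*, and *Gm26870* were higher, at 15.7, 144 and 85.3 CPM against 1.54, 50.2 and 3.54 CPM. *Il6st* differed little inside sub-clusters 1, 2 and 3, at 0.07 (-0.33 to 0.45), 0.11 (-0.21 to 0.43) and 0.31 (-0.14 to 0.79), and was higher in the cycling sub-cluster 8, at 0.91 (0.44 to 1.40). *Osmr* was lower in sub-clusters 3 and 8, at -2.22 (-3.18 to -1.22) and -2.21 (-3.63 to -1.02), and its intervals spanned 0 in 1 and 2. *Il11ra1* was higher in 3 and 8, at 1.09 (0.83 to 1.37) and 1.39 (1.13 to 1.66), and not in 1 and 2, at -0.14 and -0.17. *Socs3* had intervals that spanned 0 in all 4.

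Over sub-clusters 1, 2 and 8, which hold at least 50 cells of each library, the combined log2 ratios were 0.33 for *Il6st*, 0.09 for *Il11ra1* and 0.0038 for *Socs3*, against 4.13 for *Lepr*. The values over all fibroblasts were 0.94, 0.86, 0.60 and 4.56, so the first 3 genes differed less between the libraries within this set. *Osmr* had -0.19 there against -0.81 over all fibroblasts, which is no longer past 1.5-fold. The libraries shared this set in unlike proportions, with 54 control and 71 *SM22-SmoM2* cells in sub-cluster 8 but 282 and 117 in 1. Sub-cluster 8 gave 88 of the *SM22-SmoM2* *Lepr* UMIs of the set, against 13 in 1 and 38 in 2. The combined *Lepr* ratio therefore also holds this difference in proportions.

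*Socs3* was highest in sub-cluster 12, at 370.5 CPM (306 to 444), followed by sub-cluster 6 at 126 CPM (109 to 145) and sub-cluster 3 of the *SM22-SmoM2* library at 104 CPM (91.5 to 117). The other sub-clusters lay between 27.5 and 78.8 CPM. Sub-cluster 12 also had the highest summed level of 12 immediate early and dissociation genes, many of which are induced by handling, at 10575 CPM, and sub-cluster 6 had 7109 CPM. Control sub-cluster 9 had 7623 CPM of these genes with *Socs3* at 55.9 CPM. The part of dissociation in the *Socs3* levels was not tested. *Osmr* was low, from 6.87 to 12.8 CPM, in *SM22-SmoM2* sub-clusters 3, 6, 7, 8 and 12, and from 16.2 to 45.05 CPM in the 8 control sub-clusters. *SM22-SmoM2* sub-clusters 1, 2 and 4 had 21.6, 42.5 and 25.6 CPM *Osmr*, inside the control range.

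**Figure D3:**
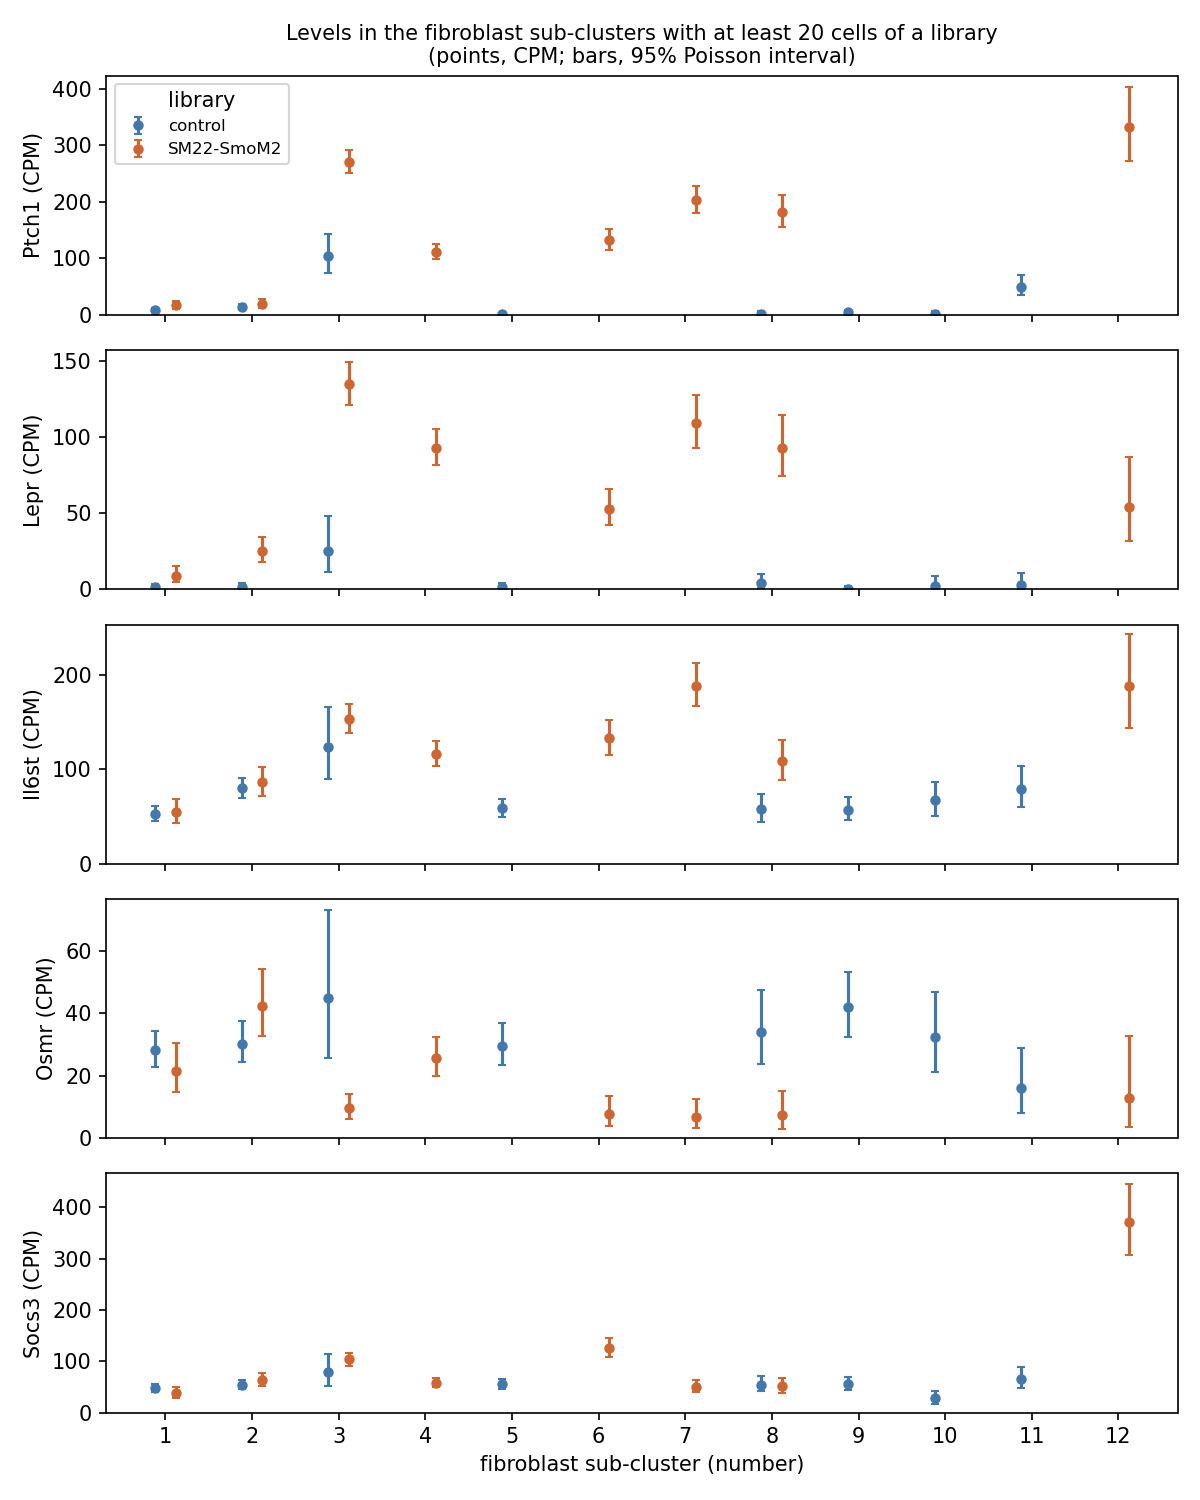
CPM of *Ptch1*, *Lepr*, *Il6st*, *Osmr* and *Socs3* (rows) in fibroblast sub-clusters 1 to 12 for the control (blue) and *SM22-SmoM2* (orange) libraries, shown where a library has at least 20 cells, with 95% Poisson intervals. *Lepr* reaches 134 CPM in sub-cluster 3 and *Socs3* 370.5 CPM in sub-cluster 12, the sub-cluster with the highest *Ptch1*.

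*SM22-SmoM2* fibroblasts were also split by *Ptch1*. A *Ptch1* UMI was found in 640 cells, with a median of 11298 UMIs. The other 458 had a median of 10218 UMIs. A cell without a *Ptch1* UMI may still express the gene. *Lepr* was at 107 CPM (100 to 115) with and 34.5 CPM (29.5 to 40.2) without *Ptch1* UMIs, a log2 ratio of 1.64 (1.39 to 1.88). Of the 441 cells with *Lepr*, 337 also had *Ptch1*, or 76.4% (72.2 to 80.3). *Leprot* was at 189 CPM with and 141 CPM without *Ptch1* UMIs, a log2 ratio of 0.42 (0.29 to 0.55).

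By number of *Ptch1* UMIs in the cell, *Lepr* was at 34.5 CPM with none, 77.6 CPM (66.6 to 90.0) with 1 and 129 CPM (112 to 149) with 2. It did not go further, at 118 CPM with 3 or 4 and 114 CPM (98.6 to 132) with 5 or more. *Osmr* went the other way, from 26.7 CPM (22.3 to 31.7) with none over 15.9, 12.7 and 11.6 CPM to 6.69 CPM (3.34 to 11.97) with 5 or more.

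Of the 7 genes, 2 were at least 1.5-fold higher with *Ptch1* UMIs and 2 at least 1.5-fold lower, beside 11.8% higher and 5.32% lower of 10042 genes, whose median log2 ratio was 0.13. The higher ones were *Lepr* and *Socs3*, the latter at 94.7 CPM (88.0 to 102) with and 57.9 CPM (51.3 to 65.1) without, a log2 ratio of 0.71 (0.51 to 0.91). *Il6st* and *Il11ra1* had 0.57 (0.41 to 0.73) and 0.54 (0.46 to 0.62). The lower ones were *Osmr*, at 12.04 CPM (9.70 to 14.8) with and 26.7 CPM without, a log2 ratio of -1.15 (-1.55 to -0.75), and *Lifr*, at 15.2 CPM (12.5 to 18.2) and 24.0 CPM (19.8 to 28.8), a log2 ratio of -0.66 (-1.04 to -0.28).

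**Figure D4:**
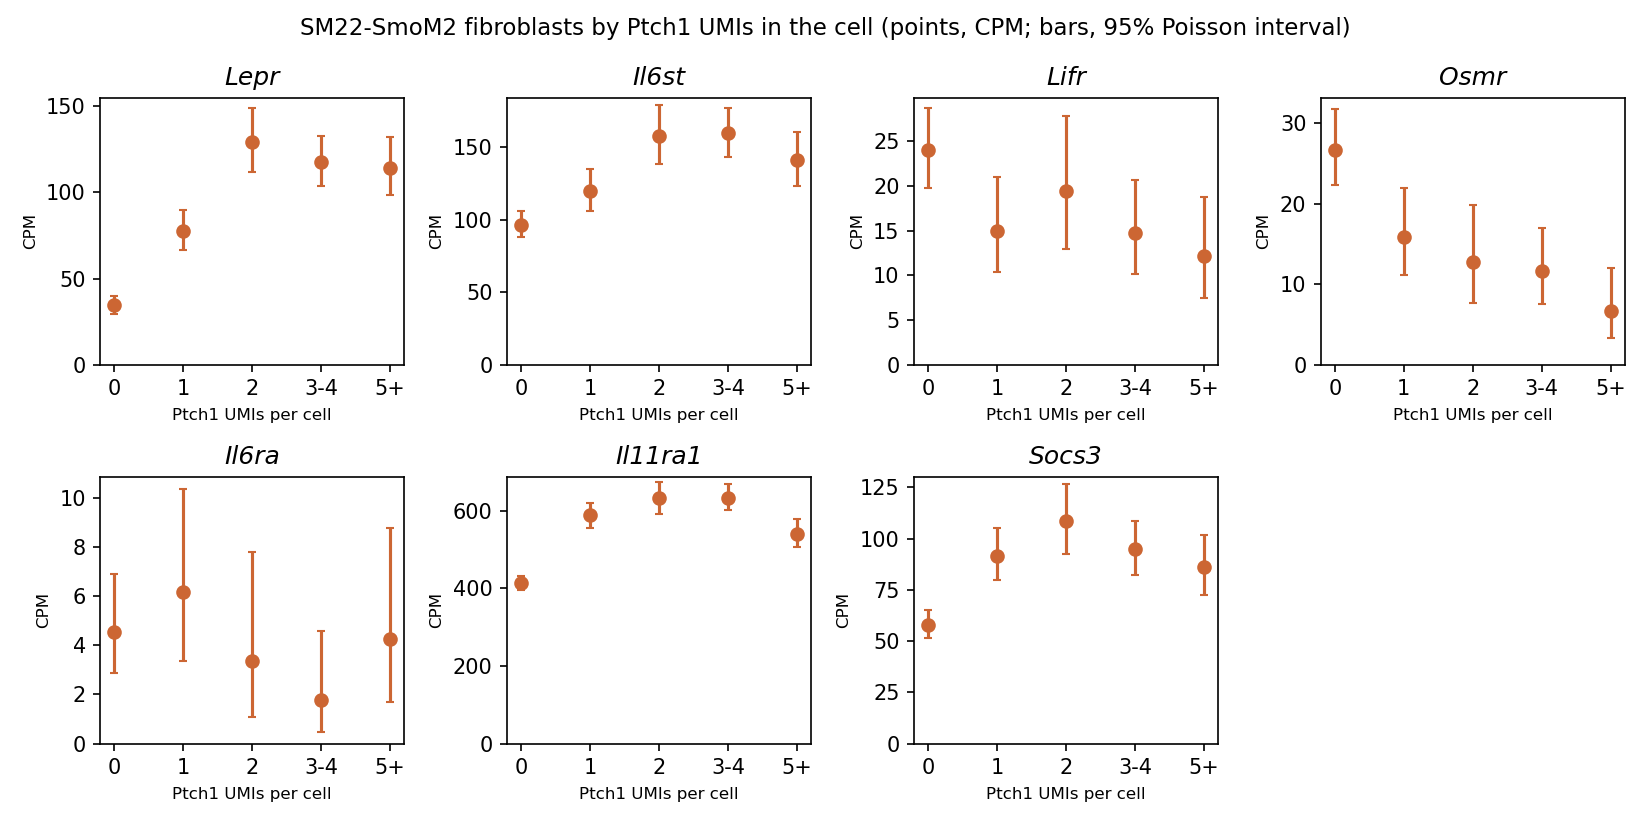
CPM of each gene in *SM22-SmoM2* fibroblasts grouped by *Ptch1* UMIs per cell (0, 1, 2, 3 to 4, 5 or more), with 95% Poisson intervals. *Lepr* goes from 34.5 to 129 CPM at 2 *Ptch1* UMIs and stays near that level, while *Osmr* goes from 26.7 to 6.69 CPM.

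Inside sub-clusters this contrast was mostly smaller. *Lepr* with and without *Ptch1* UMIs was 135 and 127 CPM in sub-cluster 3, 55.4 and 47.1 CPM in 6, and 111 and 103 CPM in 7. The intervals of these 3 log2 ratios spanned 0, and sub-cluster 4 alone had a clear difference, 110 and 60.3 CPM, or 0.87 (0.44 to 1.33). *Il6st* was lower with *Ptch1* UMIs in sub-clusters 6 and 7, at -0.67 (-1.08 to -0.26) and -0.46 (-0.86 to -0.04), and higher in 4, at 0.55 (0.18 to 0.93). Weighted over the 4 sub-clusters the log2 ratio was 0.34 for *Lepr* and -0.11 for *Il6st*. The split also changed with depth. With all cells thinned to 5000 UMIs first, *Lepr* had a log2 ratio of 0.91 and *Lifr* 0.26, and with 1500 UMIs they had -0.02 and 1.43. At 1500 UMIs *Ptch1* was seen in 214 *SM22-SmoM2* fibroblasts, *Lepr* in 94 and *Lifr* in 36. The values at that depth thus rest on few counts.

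**Figure D5:**
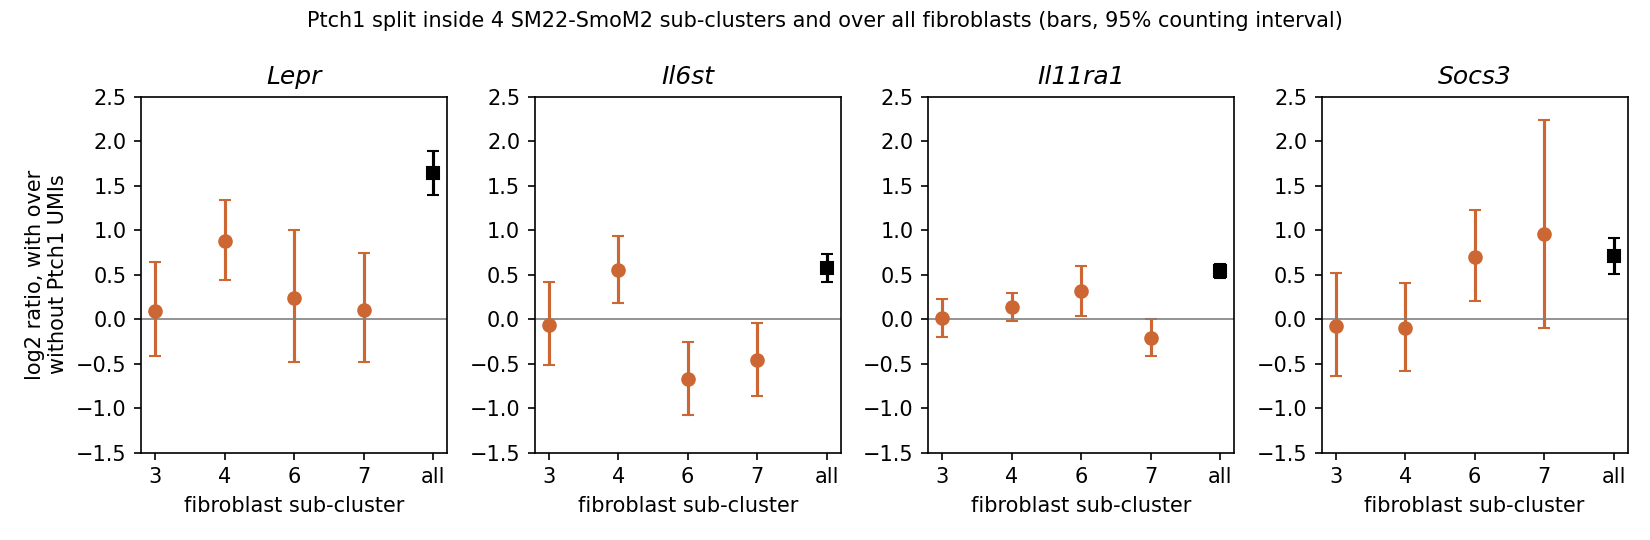
Log2 ratio of *SM22-SmoM2* fibroblasts with over those without *Ptch1* UMIs inside sub-clusters 3, 4, 6 and 7 (orange circles) and over all fibroblasts (black squares), with 95% counting intervals. For *Lepr* the value over all fibroblasts, 1.64, is above the value in each of the 4 sub-clusters, the highest of which is 0.87.

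The same split in the control library, with 105 and 940 fibroblasts, gave 9.84 CPM *Lepr* (5.38 to 16.5) with and 2.60 CPM (1.78 to 3.67) without *Ptch1* UMIs, from 14 and 32 UMIs, a log2 ratio of 1.92 (0.90 to 2.87). *Il6st* was at 94.9 CPM (79.5 to 112) and 62.1 CPM (57.8 to 66.7), and was the 1 of 6 genes with at least 50 UMIs that was at least 1.5-fold higher. None was that much lower. Among 10204 genes 9.1% were higher and 8.91% lower.

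Fibroblasts without *Ptch1* UMIs also differed between the libraries. *Lepr* was at 2.60 CPM in control cells and 34.5 CPM in *SM22-SmoM2* cells of that kind, 13.3-fold higher, with a log2 ratio of 3.73 (3.18 to 4.33). A *Lepr* UMI was found in 22 of 940 and in 104 of 458 such cells. *Il6st* and *Il11ra1* had log2 ratios of 0.64 (0.47 to 0.80) and 0.54 (0.46 to 0.62) in these cells, whereas *Socs3* had 0.18 and *Osmr* -0.26, each with an interval that spanned 0. Of the 167 *Lepr* UMIs in such *SM22-SmoM2* cells, 35, 56, 23 and 29 lay in sub-clusters 3, 4, 6 and 7. Those sub-clusters had 5, 4, 5 and 5 of 5 listed Hh pathway genes raised. That count covers whole sub-clusters, cells with *Ptch1* UMIs included, and *Ptch1* is 1 of the 5 genes. Hh activity was not measured in the cells without *Ptch1* UMIs alone, so they cannot be taken as a set without it.

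The ligands of these receptors were partly measurable in fibroblasts, where 6 of 10 had at least 50 UMIs. Of these, 2 were at least 1.5-fold higher, beside 11.9% of all genes. *Il6* was at 33.8 CPM in control and at 58.2 CPM in *SM22-SmoM2* fibroblasts, a log2 ratio of 0.78 (0.61 to 0.95), and *Lif* at 3.06 and 5.93 CPM, 0.96 (0.39 to 1.54). *Il11* had a log2 ratio of 0.00 (-0.16 to 0.17). In the *Ptch1* split of *SM22-SmoM2* fibroblasts, *Il6* was lower with *Ptch1* UMIs. It was at 45.3 CPM with and 78.6 CPM without them, a log2 ratio of -0.80 (-1.01 to -0.58). Of 5 ligands with at least 50 UMIs in that split, 0 were at least 1.5-fold higher and 2 lower, beside 11.8% and 5.32% of all genes. *Lep*, the gene of leptin itself, had 0 UMIs in fibroblasts of both libraries, which allows up to 0.218 and 0.240 CPM, as had *Cntf*, and *Osm* had 2 in each. Of 4 other receptor genes only *Cntfr* had 50 UMIs, at -0.67 (-1.12 to -0.24).

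*Stat3*, the main transcription factor of this pathway, was at 61.4 and 88.7 CPM, a log2 ratio of 0.53 (0.40 to 0.66). Among the 7 kinases and STATs 0 were 1.5-fold higher and 1 lower, beside 11.9% and 12.2% of all genes. The lower one was *Stat5a*, at -0.67 (-1.11 to -0.23). Of 8 further inhibitors 2 were higher and 1 lower, beside the same shares of all genes. The higher ones were *Socs1*, at 0.67 (0.42 to 0.92), and the phosphatase *Ptpn1*, which dampens leptin signaling, at 0.66 (0.48 to 0.83). *Socs2*, better known from growth hormone signaling, was lower, from 67.7 to 21.0 CPM, at -1.69 (-1.89 to -1.49).

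Of 15 genes known as Stat3 targets, 12 had at least 50 UMIs in fibroblasts, and 7 were higher and 1 lower, beside 11.9% and 12.2% of all genes, with a median log2 ratio of 0.69. The higher ones included *Cebpb*, at 157 and 752 CPM, *Pim1*, at 129 and 538 CPM, and *Myc*, at 75.7 and 176 CPM. *Ccl2* was lower, at -0.82 (-0.86 to -0.78). Many of these genes respond to other signals too, and 6 of the 12 immediate early genes were at least 1.5-fold higher as well, with *Nr4a1* at 2.05. The summed level of those 12 genes was 3659 CPM in control fibroblasts and 5237 CPM in *SM22-SmoM2* fibroblasts, and 4747 and 3925 CPM in Schwann cells, where *Socs3* was lower. In muscle cells, where *Socs3* was lower too, the sum was 5406 and 5475 CPM. In endothelial cells, where the *Socs3* interval spanned 0, it was 6019 and 6434 CPM. The part of these 12 genes in the *Socs3* and target values was not tested. Between *SM22-SmoM2* fibroblasts with and without *Ptch1* UMIs, 1 of the 12 targets was higher and 3 were lower, beside 11.8% and 5.32% of all genes, and the median was -0.02.

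Across 19 clusters of all cells with at least 20 cells, and among 8207 genes, the levels most like those of *Socs3* were those of *Irf1* (r = 0.94), *Zfp467* (0.91) and *Cdk9* (0.91). For *Il6st* they were *Zfp36l1* (0.90), *Oxa1l* (0.89) and *2610037D02Rik* (0.89), and for *Lepr* they were *Rpl36-ps3* (0.84), *Rps29* (0.84) and *Gm9843* (0.83). The clusters share 2 libraries, so these values of r are a description.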

How the data were processed

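The deposited matrices hold unnormalized UMI counts, which the authors made with Cell Ranger from 10x 3′ v2 libraries on mm10/GRCm38. Versions, the counted strand and the calling of cells are not given in the sources used here. The barcode lists hold the whole kit, so barcodes shared by the libraries could not be counted. Wounds were treated with 20 mM EDTA for 1 h per the labels, and Tomato+ cells were sorted.

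Cells with under 200 genes or over 10% mitochondrial UMIs were left out (22 control, 10 *SM22-SmoM2*). K-means on 20 principal components of 2000 variable genes (50 starts, scikit-learn 1.9.0, scanpy 1.11.5), with K = 20 for all cells and 15 for fibroblasts, left the 7 genes and Hh, dermal papilla and Wnt genes out. Clusters were named from at least 3 raised markers of a lineage (10 CPM and 1.5 times the median cluster). A cluster without them counted as fibroblasts if more than 6 of 12 Hh-active II markers were raised. A cluster of 47 *SM22-SmoM2* and 0 control cells was named in this way. Sub-clusters with more listed markers of another lineage than of fibroblasts among their top 10 genes were left out (62 control and 2 *SM22-SmoM2* cells). Of these, 45 control cells formed sub-cluster 13, left out for *Mlana* alone beside leading genes such as *Mmp3* and *Wisp2* that also led a kept fibroblast sub-cluster. Doublets were not removed, and Scrublet marked 5 and 11 barcodes.

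Levels are sums over the cells of a class in 1 library, and ratios came with exact intervals (scipy 1.17.1). The ratio code was run on simulated Poisson counts, the model that the intervals assume. That run held no clumping of UMIs in single cells and no spread between mice, so it cannot judge the intervals on these data. Genes needed 50 UMIs to enter a count of genes past 1.5-fold, and a 0 was set to 3 counts there. Named genes are the 7 members, *Ptch1*, *Leprot*, genes of the lists past 1.5-fold or partnered with a member, and the 3 genes most like *Lepr*, *Il6st* and *Socs3* by Pearson's r of log2(CPM + 10). *Cebpd* was not analysed here. A gene of the ligand list is not reported here. The members and lists were chosen with earlier results of these data known. Of 27998 gene IDs, 27722 were in GENCODE M21, 26573 under the same name. Alternatives were mitochondrial limits, doublet removal, other clusterings, thinning, per-cell means, sex, the *Ptch1* split within sub-clusters and others chosen after seeing the data.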

Additional observations from a re-analysis of the deposited data

Results flagged for a closer look

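Each of *Il6st* and *Socs3* was higher in *SM22-SmoM2* fibroblasts and lower in 2 of the 4 other lineages of that library, with counting intervals on opposite sides of 0. In the remaining lineages the intervals spanned 0. The log2 ratio of *Il6st* in fibroblasts was above that in endothelial cells by 1.21 and above that in Schwann cells by 1.52. For *Socs3* the gap was 1.36 to Schwann cells and 1.29 to muscle cells. The *Socs3* ratio in fibroblasts was 0.0038 over sub-clusters 1, 2 and 8 and -0.0078 in female cells, and in female muscle cells it was 0.15. With 1 library per group these differences were not tested.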

How the results depend on the processing

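Values are log2 ratios unless said otherwise. No paired analysis was possible because each group has 1 library, and leaving out a replicate was not possible for the same reason. Of 588 values under alternatives, 512 stayed inside the counting interval of the reported value, 10 changed the sign of a value whose interval lay on one side of 0, and the other 66 moved outside the interval. The *Lepr* ratio of *SM22-SmoM2* over control fibroblasts stayed between 4.13 and 4.91 over 15 alternatives. Ratios inside single sub-clusters were not among these and were as low as 2.41. The cause of the following shifts was not tested.

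Over control, in male fibroblasts *Lifr*, *Il11ra1* and *Socs3* were at 0.40, 1.01 and 0.77. In female ones *Il6st*, *Lifr*, *Osmr*, *Il6ra* and *Socs3* were at 1.68, -1.09, -2.60, 0.78 and -0.0078, and the *Lepr* share of UMIs in fibroblasts was 20.2% in control and 85.5% in *SM22-SmoM2* cells. Thinned to 1500 UMIs, *Il6st*, *Osmr*, *Il11ra1* and *Socs3* were at 0.69, -1.12, 0.79 and 0.84. As means of per-cell CPM, *Il11ra1* and *Socs3* were at 0.79 and 0.75. Over sub-clusters 1, 2 and 8 (50 or more cells from both libraries), *Lepr*, *Il6st*, *Osmr*, *Il11ra1* and *Socs3* were at 4.13, 0.33, -0.19, 0.092 and 0.0038. In other lineages, *Osmr* in female Schwann cells was at 0.0053, *Socs3* in female muscle cells at 0.15 and *Lifr* in endothelial cells thinned to 1500 UMIs at 0.0035.

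For the *Ptch1* split of *SM22-SmoM2* fibroblasts, *Il11ra1* and *Socs3* in female cells were at 0.62 and 0.15. Thinned to 1500 UMIs, *Lepr*, *Lifr*, *Osmr* and *Il11ra1* were at -0.024, 1.43, -2.65 and 0.12. Thinned to 5000 UMIs, which left out 122 cells and found *Ptch1* in 419 of 976, *Lepr*, *Il6st*, *Lifr*, *Il11ra1* and *Socs3* were at 0.91, 0.34, 0.26, 0.28 and 0.35. Within sub-clusters *Lepr*, *Il6st*, *Lifr*, *Osmr*, *Il11ra1* and *Socs3* were at 0.34, -0.11, -0.16, -0.40, 0.030 and 0.25.

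Of the alternatives chosen after seeing the data, a split by *Gli1* in place of *Ptch1*, into 312 and 786 cells, gave 0.75, 0.22, -0.10, -0.31, 0.14 and 0.37 for the same 6 genes. Relative to the median of all genes, *Il11ra1* was at 0.92 over control and 0.40 in the *Ptch1* split. Without sub-cluster 12, *Socs3* over control was at 0.46, and without immune cells of at least 20 *Col1a1* UMIs, immune *Il11ra1* was at -0.023.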
